A study of Mus musculus with 6 samples.

Results

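Ligands of the BMP, GDF and activin families and their secreted antagonists were examined in healing flexor tendons. They comprised 10 genes of the 53819 listed in the deposited tables, taken by symbol from a list, with Cre-positive against Cre-negative columns. Bmp2, Bmp4, Bmp6, Bmp7, Gdf5, Gdf6, Gdf10 and Inhba encode ligands or ligand subunits, and Fst and Grem1 encode antagonists. All 10 passed the filter on low counts, as did 17496 genes in all. RNA came from flexor digitorum longus (FDL) tendons that had been transected and repaired in the hind paw of mice aged 10 to 12 weeks, with each library made from 1 tendon taken at D28 post-surgery. DTRScxLin mice (Scx-Cre+; DTR F/+, n = 3) and their WT littermates (Scx-Cre-; DTR F/+, n = 3) all carried the Cre-dependent diphtheria toxin receptor and all received 5 daily local injections of diphtheria toxin (DT) from D14 to D18. The Scx promoter drives this Cre from development onward, so the receptor is switched on in cells of the whole scleraxis lineage, named for a tendon transcription factor, and not only in cells that express it at the time of injection. The titles of the samples place D28 after depletion, whereas the extraction protocol places it after surgery, which is used here. In bulk tendon RNA, fewer cells of a type and less RNA per cell cannot be told apart.

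BMPs, GDFs and activins are secreted dimers that assemble type I and type II serine/threonine kinase receptors. BMP2, BMP4, BMP6, BMP7, GDF5 and GDF6 act mainly through SMAD1, SMAD5 and SMAD9, which switch on genes such as those of the Id family, whereas activins, dimers of inhibin beta subunits, and some GDFs such as myostatin and GDF11 act through SMAD2 and SMAD3. Antagonists bind the ligands outside the cell and keep them from their receptors. In tendon, GDF5 and GDF6 are known for their roles in tendon and joint formation, and BMP signalling for its part at the tendon-bone attachment and in ectopic ossification after injury.

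Gene counts totalled 45184255, 47570157 and 44104578 for the WT tendons and 47125566, 48854310 and 42744138 for the DTRScxLin tendons (replicates 1, 2 and 3). The 10 genes together held between 0.0131% and 0.0176% of the counts of a library. Tendon markers were present in every library. Scx was between 2201 and 3063 normalized counts in WT and between 3406 and 3531 in DTRScxLin tendons. Tnmd, which encodes tenomodulin, was between 50499 and 92191 in all libraries. The paper names as a limit that the efficiency of depletion could not be quantified. Values are given as normalized counts, scaled by TMM to the mean of the library sizes, and where 3 values are given for a group they stand for replicates 1, 2 and 3 in that order. Libraries differed in muscle and skin transcripts. The summed share of 12 skeletal muscle genes was 2.04%, 1.77% and 1.46% in WT against 0.248%, 1.79% and 0.476% in DTRScxLin tendons. For 10 keratinocyte genes it was 0.292% and 0.184% in WT replicates 1 and 2, 0.0268% in DTRScxLin replicate 3 and 0.00122% or less elsewhere. The non-coding RNA Xist, made from the inactive X chromosome, reached 49303 counts in WT replicate 2, 53828 in DTRScxLin replicate 2 and 54082 in DTRScxLin replicate 3, with 4 or fewer elsewhere. The study used male and female mice.

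The comparison was between DTRScxLin and WT tendons. In 5 of the 10 genes the groups did not overlap: Bmp2, Bmp7, Gdf5 and Fst were lower in each DTRScxLin library than in each WT library, and Inhba was higher. Among all genes tested, 16.8% had groups that did not overlap, 7.85% with lower and 8.96% with higher values in DTRScxLin tendons. In edgeR's quasi-likelihood test with Benjamini-Hochberg adjustment over all genes, 0 of the 10 had an adjusted p under 0.05, against a background of 0% (0 of 17496 genes). At an unadjusted p under 0.05 in the same test the same 5 genes were found, where the background was 11.0%. DESeq2's Wald test called 1 of the 10, Bmp7, against a background of 2.65%. With DTRScxLin replicate 2 left out, edgeR called 0 of the 10, where 3.27% of all genes were called and 2.62% were called lower. In the edgeR fit 8 of the 10 were lower in DTRScxLin tendons, as were 48.5% of all genes tested, and their median log2 fold change was -0.39 against 0.0082 over all genes tested. In the deposited normalized counts, which carry the authors' own scaling, the same 5 genes had groups without overlap. The 10 genes were chosen with earlier results of these data known, so their counts beside these backgrounds are a description only.

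**Figure D1:**
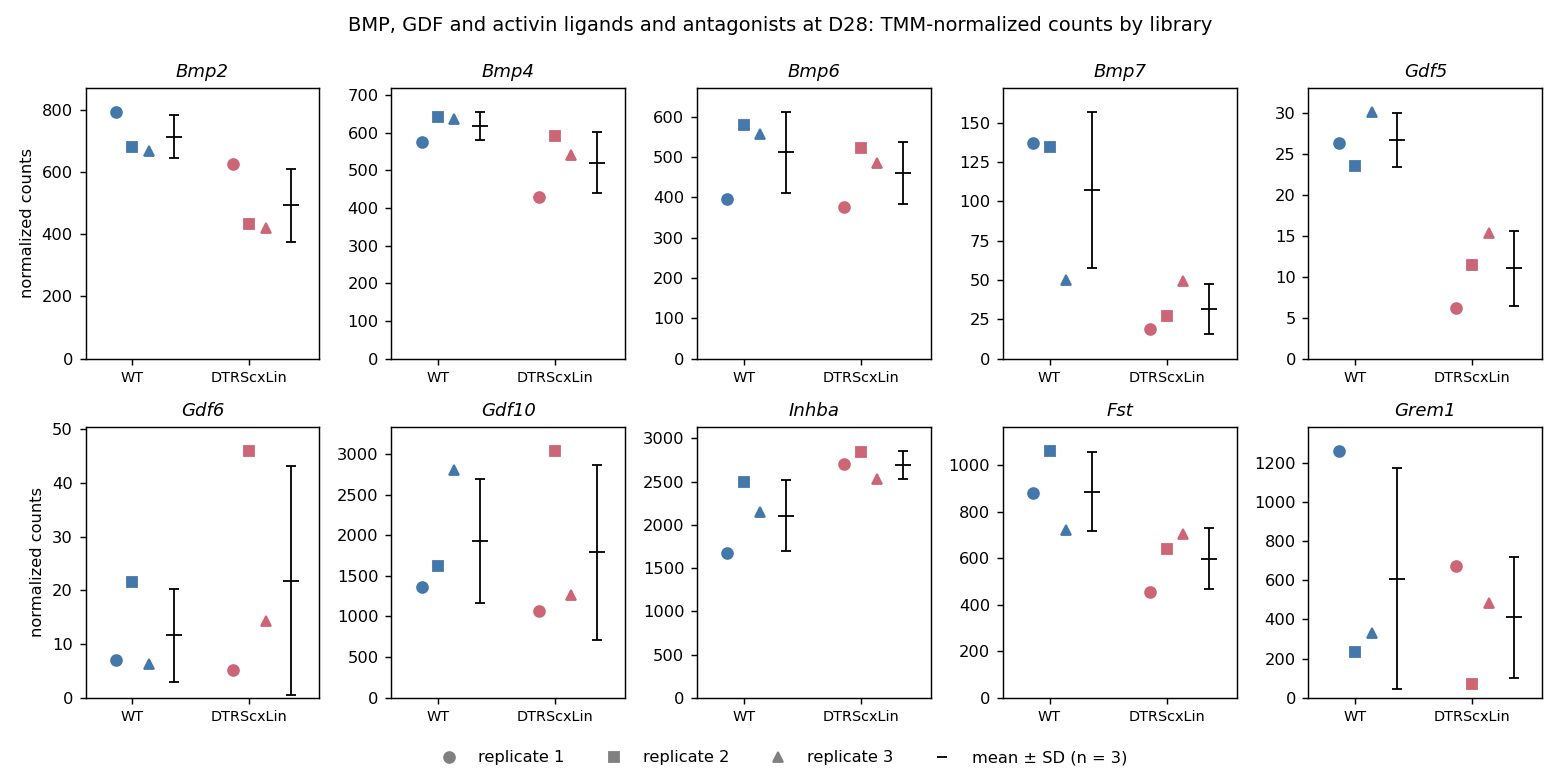
TMM-normalized counts (y axes, from 0) of the 10 genes in WT (blue) and DTRScxLin (red) tendons, 1 symbol per library, with the mean ± SD of each group (n = 3) in black. Bmp2, Bmp7, Gdf5 and Fst lie lower and Inhba higher in all DTRScxLin libraries, Bmp7 by a margin of 49.9 against 49.3, while Gdf10, Gdf6 and Grem1 spread widely within each group.

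Levels between genes were compared per kb of exon, with lengths taken from GENCODE vM21. Inhba was highest at 376 normalized counts per kb over the 6 libraries, followed by Gdf10 at 357, Bmp4 at 253, Bmp2 at 170, Fst at 162, Bmp6 at 125 and Grem1 at 123. Bmp7 at 17.3, Gdf5 at 8.13 and Gdf6 at 4.74 were more than 1 order of magnitude below Inhba. The order differed by group: in WT tendons Gdf10 (370) was above Inhba (330) and Grem1 (147) above Bmp6 (131), and in DTRScxLin tendons Gdf6 (6.18) was above Gdf5 (4.75). Gdf5 was divided by its full exon length, of which 40.3% lies antisense to Gm15557. Whether reads in that part were counted is not stated. The per-library range of Inhba, from 262 to 445 per kb, lay within that of Gdf10, from 205 to 581. The ranges of Bmp4 (192 to 285), Bmp2 (118 to 223), Fst (98.8 to 231), Bmp6 (96.2 to 149) and Grem1 (17.1 to 303) each overlapped that of the next gene, as did those of Bmp7, Gdf5 and Gdf6. Bmp7, with at most 34.1 per kb in any library, was below the lowest library of Bmp6, but not below the lowest library of Grem1.

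Among the BMP genes, Bmp2, a ligand known for bone and cartilage induction, measured 794, 681 and 669 in WT against 627, 433 and 419 in DTRScxLin tendons. All DTRScxLin libraries were below the WT range, DTRScxLin replicate 1 by the least. DTRScxLin minus WT, the log2 fold change was -0.53 (standard error, SE, 0.18, 95% interval -0.95 to -0.12, adjusted p = 0.389 from edgeR's test). Bmp4, which shares its receptors with Bmp2 and is close to it in sequence, measured 574, 641 and 637 in WT against 431, 591 and 540 in DTRScxLin tendons. The groups overlapped through DTRScxLin replicate 2, and the log2 fold change was -0.25 (SE 0.14, adjusted p = 0.541 from edgeR's test). Bmp6, a ligand known for its control of hepcidin and iron, measured 397, 580 and 557 in WT against 375, 522 and 485 in DTRScxLin tendons. Replicate 1 was the lowest in both groups, the groups overlapped, and the log2 fold change was -0.15 (SE 0.19, adjusted p = 0.801 from edgeR's test). In GENCODE vM21, 5.74% of the exon bases of Bmp6 lie antisense to Txndc5, which was at 3282 normalized counts per kb against 125 for Bmp6 and had a log2 fold change of 0.43 (adjusted p = 0.347 from edgeR's test and 0.0397 from DESeq2). The TruSeq Stranded kit named for these libraries marks the strand, but whether the counting used it is not stated. Reads in the shared bases may thus have been left out or assigned to the other gene. The part of this overlap in the Bmp6 values was not tested. The overlaps of Bmp4 (3.96%) and Fst (2.51%) were with genes of at most 7 counts in a library.

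Bmp7, a ligand of kidney, eye and skeletal development that is also expressed in skin, measured 137, 135 and 49.9 in WT against 18.5, 26.8 and 49.3 in DTRScxLin tendons. WT replicate 3 and DTRScxLin replicate 3 each had 48 raw counts, so the order of these libraries rested on the scaling alone. The mean was 107 ± 49.6 in WT and 31.5 ± 15.9 in DTRScxLin tendons (SD, n = 3 each), a log2 fold change of -1.76 (SE 0.51, 95% interval -2.95 to -0.58). The adjusted p was 0.353 from edgeR's quasi-likelihood test and 0.0223 from DESeq2, and it ranged from 0.0223 to 0.834 over the alternatives run. WT replicates 1 and 2, the highest for Bmp7, were also the libraries with most keratinocyte transcripts. Krt14, a keratin of the basal epidermis, had 9930 and 4571 normalized counts there, 2139 in DTRScxLin replicate 3 and at most 1.03 in the others. The defining keratinocyte genes Krt5, Krt14, Krt1, Krt15, Dsg1a and Lor were each at 0 in at least 1 library. In the libraries with next to no Krt14, Bmp7 had 49.9 (WT replicate 3), 18.5 and 26.8 (DTRScxLin replicates 1 and 2) normalized counts, and the part of keratinocyte RNA in the difference was not tested.

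The GDF genes were fewer in counts or more variable. Gdf5, required for joint formation, measured 26.4, 23.5 and 30.1 in WT against 6.18, 11.5 and 15.4 in DTRScxLin tendons. All WT libraries were above all DTRScxLin libraries, at raw counts of 25 to 29 against 6 to 15. The log2 fold change was -1.26 (SE 0.42, 95% interval -2.24 to -0.29, adjusted p = 0.389 from edgeR's test). An antisense gene, Gm15557, covers 40.3% of the exon bases of Gdf5 and was listed at 0 counts in every library. Gdf6, the close relative of Gdf5, measured 7.10, 21.7 and 6.23 in WT against 5.15, 45.9 and 14.4 in DTRScxLin tendons. It was highest in DTRScxLin replicate 2, the groups overlapped, and a log2 fold change of 0.89 had a 95% interval from -1.09 to 2.87 (adjusted p = 0.709 from edgeR's test). Gdf10, also known as BMP3B, measured 1368, 1622 and 2798 in WT against 1069, 3030 and 1267 in DTRScxLin tendons. Both groups held libraries more than 2-fold apart, and the log2 fold change was -0.11 (SE 0.53, 95% interval -1.48 to 1.26, adjusted p = 0.958 from edgeR's test).

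The activin subunit and its antagonist had fitted values in opposite directions. Inhba encodes the inhibin beta A subunit that forms activin A. It measured 1677, 2500 and 2145 in WT against 2701, 2845 and 2531 in DTRScxLin tendons. All DTRScxLin libraries were above the WT range, the nearest pair being WT replicate 2 and DTRScxLin replicate 3. The log2 fold change was 0.35 (SE 0.14, 95% interval 0.02 to 0.69, adjusted p = 0.447 from edgeR's test). Fst encodes follistatin, which binds and neutralizes activin. It measured 880, 1059 and 720 in WT against 453, 638 and 704 in DTRScxLin tendons, so that the groups were separated by WT replicate 3 against DTRScxLin replicate 3. The log2 fold change was -0.57 (SE 0.20, 95% interval -1.04 to -0.10, adjusted p = 0.414 from edgeR's test). Per kb, Inhba stood to Fst at 1.37, 1.70 and 2.14 in WT and at 4.28, 3.20 and 2.58 in DTRScxLin replicates 1 to 3. This ratio was computed after its genes had been seen to differ and is given as a description. The sequence before the start of Inhba, the gene with the higher values, is shown from RefSeq (GRCm38.p6, chr13:16011601-16011850, plus strand, 250 bases). It had a GC content of 43.2%.
Inhba: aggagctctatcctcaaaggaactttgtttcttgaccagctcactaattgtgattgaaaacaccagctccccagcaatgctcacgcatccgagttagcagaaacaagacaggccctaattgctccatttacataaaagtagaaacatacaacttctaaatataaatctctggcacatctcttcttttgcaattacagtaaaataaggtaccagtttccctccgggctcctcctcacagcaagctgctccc

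Grem1 encodes gremlin 1, an antagonist that binds BMP2, BMP4 and BMP7. It measured 1258, 233 and 333 in WT against 675, 70.8 and 486 in DTRScxLin tendons. WT replicate 1 was the highest library and DTRScxLin replicate 2 the lowest, with a 5.39-fold range in WT and a 9.54-fold range in DTRScxLin tendons. The log2 fold change of -0.57 had a standard error of 1.07 and a 95% interval from -3.38 to 2.25 (adjusted p = 0.880 from edgeR's test). DTRScxLin replicate 2, with the lowest Grem1 of all libraries, had the highest Gdf10 and Gdf6, and it was also the DTRScxLin library with the most skeletal muscle transcripts (1.79%). In the WT libraries, with 2.04%, 1.77% and 1.46% muscle transcripts, Grem1 was at 1258, 233 and 333. Gdf10 was at 1368, 1622 and 2798 there, and Gdf6 at 7.10, 21.7 and 6.23. The 3 highest Gdf6 values were those of the 3 libraries with high Xist, a pattern noticed after the values were seen. With a term for Xist in the edgeR fit, the log2 fold change of Gdf6 was 0.15 (SE 0.62) in place of 0.89 (SE 0.84). The part of muscle RNA in the values of Grem1, Gdf10 and Gdf6 was not tested, nor was the cause of the Gdf6 pattern. Without WT replicate 1 the log2 fold change of Grem1 was 0.54, without WT replicate 3 that of Gdf10 was 0.25, and without DTRScxLin replicate 2 that of Gdf6 was -0.26.

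**Figure D2:**
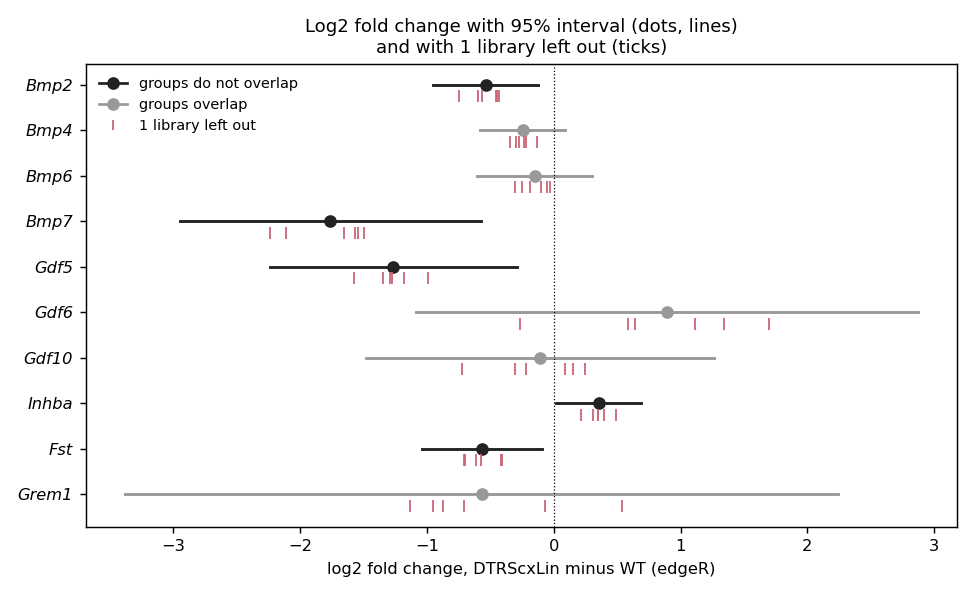
Log2 fold change of DTRScxLin minus WT (x axis) from edgeR with its 95% interval for each gene (dots and lines, black where the groups do not overlap), and the log2 fold change with each of the 6 libraries left out in turn (red ticks). The ticks of Bmp2, Bmp4, Bmp6, Bmp7, Gdf5 and Fst stay below 0 and those of Inhba above 0, while those of Gdf6, Gdf10 and Grem1 lie on both sides.

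The rest of the pathway was taken from 6 lists by role. These lists were also chosen with earlier results known, so their counts beside the backgrounds are a description only. None of their 69 tested genes passed edgeR's quasi-likelihood test at an adjusted p under 0.05, the smallest value being 0.307. DESeq2 called 1 higher (Fstl1) and 3 lower (Acvr1b, Id3 and Atoh8), against backgrounds of 1.12% higher and 1.53% lower. At an unadjusted p under 0.05 in edgeR's test, 3 genes were higher and 9 lower, where the backgrounds were 5.52% and 5.45%. The list of 22 other ligands includes Lefty1, an antagonist of Nodal. In this list 12 were tested, 9 of them fitted higher and 3 lower, with a median log2 fold change of 0.21, and 0 were called. Mstn, which encodes the muscle growth inhibitor myostatin, was the most abundant of them per kb, at 5713, 12215 and 15845 in WT against 7984, 24352 and 12216 in DTRScxLin tendons. Bmp5 followed, at 896, 1315 and 1330 in WT against 844, 1923 and 770 in DTRScxLin tendons. The groups overlapped for both, and 46.7% of the exon bases of Bmp5 lie antisense to Gm26903.

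**Figure D3:**
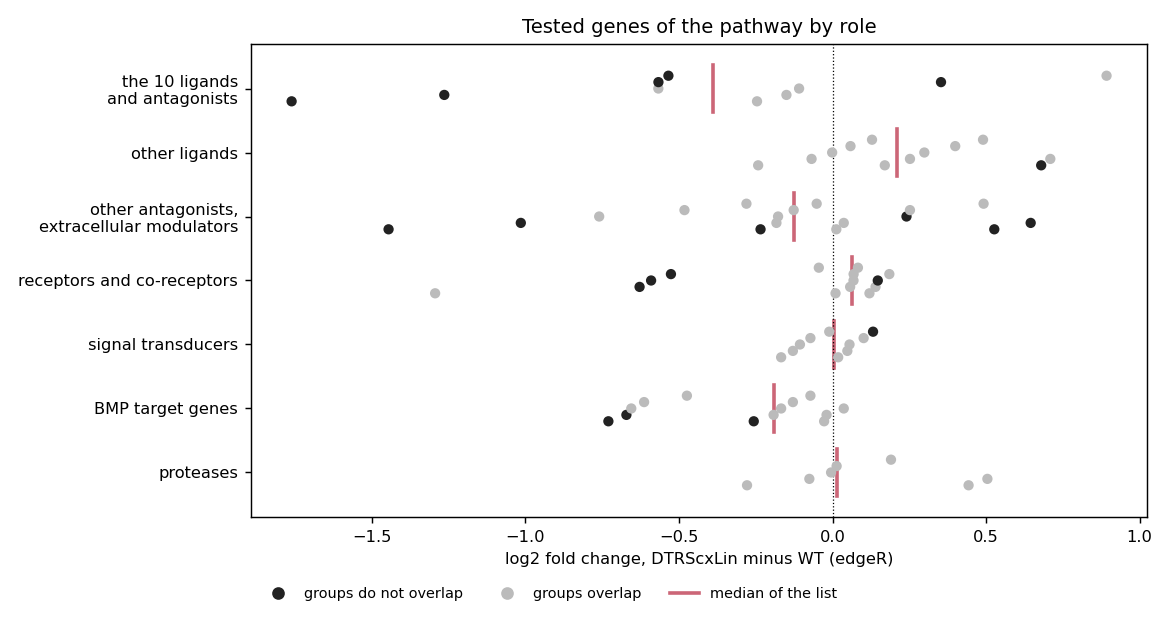
Log2 fold change of DTRScxLin minus WT from edgeR (x axis) for the 10 ligands and antagonists (top) and the tested genes of each other role, 1 dot per gene, black where the groups do not overlap and grey where they do, with the median of each list as a red line. In the list of BMP target genes 12 of 13 dots lie below 0 with a median of -0.19, while the signal transducers lie closely around 0.

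Among 21 other antagonists and extracellular modulators, 17 were tested, 7 fitted higher and 10 lower (median log2 fold change -0.13), with 3 higher and 3 lower genes whose groups did not overlap, where the backgrounds were 8.96% and 7.85%. Fstl1 encodes follistatin-like 1, a secreted glycoprotein of mesenchymal cells. It measured 101727, 101404 and 113072 in WT against 152740, 149377 and 153493 in DTRScxLin tendons. Its log2 fold change was 0.53 (SE 0.13, adjusted p = 0.307 from edgeR's test and 4.05e-05 from DESeq2), and the DTRScxLin libraries lay within a 1.03-fold range. Nog encodes noggin, a BMP antagonist that BMP signalling itself induces. It measured 59.9, 92.3 and 45.7 in WT against 19.6, 37.3 and 15.4 in DTRScxLin tendons, a log2 fold change of -1.45 (SE 0.44, adjusted p = 0.356 from edgeR's test). Wfikkn2, whose product binds myostatin and GDF11, was at 102 ± 19.6 in WT and 50.5 ± 12.8 in DTRScxLin tendons (SD, n = 3 each), without overlap (adjusted p = 0.351 from edgeR's test). Nbl1, the second most abundant of the list per kb after Fstl1 and an antagonist of the same family as gremlin, overlapped between the groups (log2 fold change -0.28, standard error 0.17).

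Of the 14 receptors and co-receptors, all tested, 9 were fitted higher and 5 lower, with a median log2 fold change of 0.06. The groups did not overlap in 1 higher (Acvr1) and 3 lower genes (Acvr1b, Acvr1c and Acvr2b), where the backgrounds were 8.96% and 7.85%. Acvr1b encodes ALK4, a type I receptor of activin. It measured 1517, 1657 and 1211 in WT against 952, 1124 and 969 in DTRScxLin tendons, without overlap. Its log2 fold change was -0.53 (SE 0.13, adjusted p = 0.314 from edgeR's test and 0.0463 from DESeq2). Acvr2b, a type II receptor of activin and myostatin, had 109 ± 24.2 normalized counts in WT and 72.5 ± 4.39 in DTRScxLin tendons (SD, n = 3 each), also without overlap (adjusted p = 0.455 from edgeR's test). Bmpr1a and Eng were the most abundant per kb among the receptors with a matched exon length, which Hjv lacked, and their log2 fold changes of 0.19 and 0.07 had standard errors of 0.098 and 0.12. The 10 signal transducers ranged within a narrow band, with 5 fitted higher and 5 lower around a median of 0.0039, and 0 were called by edgeR or DESeq2. Smad5, for example, measured 5838, 6313 and 5897 in WT against 6203, 5764 and 6314 in DTRScxLin tendons, and its log2 fold change had a 95% interval from -0.17 to 0.21. That of Smad4, the common partner of the receptor SMADs, was 0.10 (95% interval -0.09 to 0.29). Of 7 proteases that process the ligands or their antagonists, 4 were fitted higher and 3 lower (median 0.013). Bmp1, a procollagen proteinase that also cleaves chordin, and Pcsk6, a proprotein convertase, were the most abundant, and their groups overlapped. Tll1, a relative of Bmp1, had a log2 fold change of 0.44 (SE 0.19, adjusted p = 0.454 from edgeR's test).

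The 13 BMP target genes were all tested, and 12 of them were fitted lower in DTRScxLin tendons, where 48.5% of all genes tested were, with a median log2 fold change of -0.19. At an unadjusted p under 0.05 in edgeR's test, 5 were lower (Id1, Id2, Id3, Atoh8 and Dlx5) and 0 higher, against backgrounds of 5.45% lower and 5.52% higher. DESeq2 called 2 lower (Id3 and Atoh8), against 1.53% of all genes. Groups did not overlap in 3 of the 13 (Id2, Atoh8 and Dlx5), where the background for lower values was 7.85%. Smad6, Smad7, Smad9 and Bambi belong to a second list as well. Like the others, this list was chosen with earlier results known, so its counts are a description. Id1, Id2 and Id3 encode proteins that bind basic helix-loop-helix factors and block their DNA binding. Id3 measured 2545, 3881 and 4147 in WT against 2114, 2600 and 2195 in DTRScxLin tendons. The groups overlapped through WT replicate 1 and DTRScxLin replicate 2, and the log2 fold change was -0.61 (SE 0.19, adjusted p = 0.372 from edgeR's test and 0.0494 from DESeq2). Id1 measured 676, 1008 and 1114 in WT against 448, 570 and 758 in DTRScxLin tendons, with WT replicate 1 again the lowest WT library and below DTRScxLin replicate 3 (log2 fold change -0.66, standard error 0.25). Id2 measured 2869, 2554 and 2598 in WT against 2520, 2138 and 2056 in DTRScxLin tendons, without overlap but with a narrow margin (log2 fold change -0.26, standard error 0.10).

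Atoh8, a basic helix-loop-helix gene downstream of BMP receptors, measured 183, 219 and 212 in WT against 120, 112 and 139 in DTRScxLin tendons. The groups stood apart, with a log2 fold change of -0.73 and a standard error of 0.20 (adjusted p = 0.340 from edgeR's test and 0.0435 from DESeq2). Dlx5, a homeobox gene of skeletal cells, measured 67.0, 58.4 and 57.1 in WT against 39.1, 37.3 and 38.0 in DTRScxLin tendons, also without overlap (log2 fold change -0.67, standard error 0.25). Hey1, Msx1 and Bambi had log2 fold changes of -0.02, -0.03 and 0.04, near that of all genes tested.

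**Figure D4:**
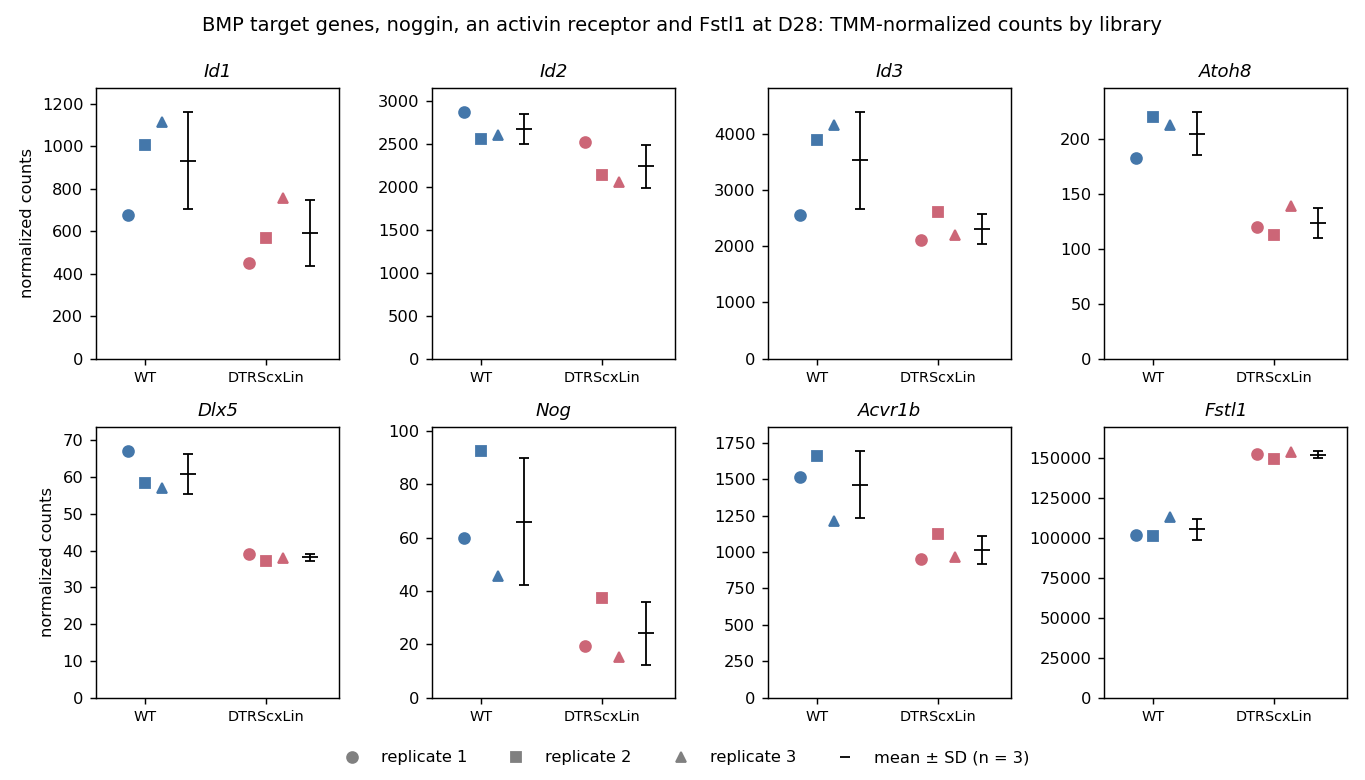
TMM-normalized counts (y axes, from 0) of 5 BMP target genes and of Nog, Acvr1b and Fstl1 in WT (blue) and DTRScxLin (red) tendons, 1 symbol per library, with the mean ± SD of each group (n = 3) in black. Id2, Atoh8, Dlx5, Nog and Acvr1b lie lower and Fstl1 higher in all DTRScxLin libraries, and WT replicate 1 is the lowest WT library for Id1 and Id3.

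The 250 bases before the start of the target genes called by DESeq2 or without overlap are shown where RefSeq (GRCm38.p6) had an entry: Id2 at chr12:25096093-25096342 (minus strand), Id3 at chr4:136143572-136143821 (plus strand) and Atoh8 at chr6:72235578-72235827 (minus strand). Capitals mark the E-box CANNTG, which basic helix-loop-helix factors such as scleraxis bind, and GGCGCC, the GC-rich element that BMP-activated SMADs bind. Both motifs read the same on either strand, and a match of one can share 1 base with a match of the other. Among 32851 such windows, 66.2% held CANNTG and 9.59% held GGCGCC. The Id2 window held 1 of each, that of Atoh8 held 2 E-boxes, and those of Id3 and of Inhba, shown above, held neither. Of the 10 ligand and antagonist genes, 5 had an entry (Bmp4, Bmp6, Gdf10, Inhba and Grem1), among which Bmp4 held 3 E-boxes, Bmp6 2, and Grem1 1 GGCGCC. A match is a description and not a site of binding.
Id2: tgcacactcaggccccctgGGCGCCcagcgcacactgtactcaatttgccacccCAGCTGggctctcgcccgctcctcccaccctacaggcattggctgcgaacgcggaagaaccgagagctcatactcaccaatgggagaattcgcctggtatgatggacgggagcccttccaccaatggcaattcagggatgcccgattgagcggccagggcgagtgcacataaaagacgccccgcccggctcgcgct
Id3: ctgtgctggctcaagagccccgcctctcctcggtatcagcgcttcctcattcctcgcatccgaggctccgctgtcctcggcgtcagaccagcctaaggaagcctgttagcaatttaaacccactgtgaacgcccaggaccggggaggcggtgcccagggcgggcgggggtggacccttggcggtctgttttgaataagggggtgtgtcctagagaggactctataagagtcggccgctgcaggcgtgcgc
Atoh8: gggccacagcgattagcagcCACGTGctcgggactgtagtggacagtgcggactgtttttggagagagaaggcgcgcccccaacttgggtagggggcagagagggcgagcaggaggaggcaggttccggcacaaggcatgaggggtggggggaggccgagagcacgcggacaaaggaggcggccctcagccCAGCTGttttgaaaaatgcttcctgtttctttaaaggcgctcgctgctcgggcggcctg

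Markers of other cells that could carry these transcripts were read in the same libraries. Of all genes tested, 8.96% were higher and 7.85% lower without overlap, the background for the counts that follow. The endothelial list, whose cells are known for high Id1 and Id3, summed to 0.0704%, 0.0839% and 0.0908% of counts in WT against 0.0687%, 0.0715% and 0.0822% in DTRScxLin tendons. Of its 10 genes, 9 were fitted lower with a median log2 fold change of -0.11, and in 0 of the 10 did the groups not overlap. Pecam1 was its most abundant gene per kb, and the leading gene of each list below is named on the same scale. The vascular smooth muscle and pericyte list, led by Rgs5, had all 8 genes fitted lower (median -0.37), 0 of them without overlap, with 0.221% to 0.304% of the counts in WT and 0.182% to 0.206% in DTRScxLin libraries. The Schwann list, led by Pmp22, had 7 of 8 genes fitted lower (median -0.63), 2 of them without overlap (Prx and Ncmap), with 0.0617%, 0.114% and 0.101% in WT and 0.0446%, 0.0602% and 0.0782% in DTRScxLin replicates 1 to 3. All 7 adipocyte genes were fitted lower (median -2.25) and in 5 of them the groups did not overlap, although Fabp4, the most abundant and also an endothelial gene, overlapped, and Lep was at 0 in some libraries. The macrophage list, led by Lyz2, had a median of 0.04 and held 0.350% to 0.431% of the counts in all libraries. Its gene Cd163, a scavenger receptor of resident macrophages, was the 1 member without overlap, at 2449 ± 301 in WT and 852 ± 327 in DTRScxLin tendons (SD, n = 3 each; adjusted p = 0.293 from edgeR's test and 2.7e-06 from DESeq2). Of 7 tested cartilage genes, led by Acan, 5 were fitted lower (median -0.27), and of 7 bone genes, led by Spp1, 3 were (median 0.39), with 1 lower gene without overlap in each list (Matn3 and Alpl). The skeletal muscle list, led by Acta1, had all 12 genes fitted lower (median -1.19), 1 of them without overlap (Atp2a1), and the keratinocyte list, led by Krt10, all 10 (median -3.24), 0 of them without overlap. In the tendon list, led by Thbs4, 2 of 8 genes were fitted lower, the median was 0.31, and 3 were higher without overlap (Scx, Thbs4 and Kera). The part of these cells in the values of the ligands, antagonists and targets was not tested.

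**Figure D5:**
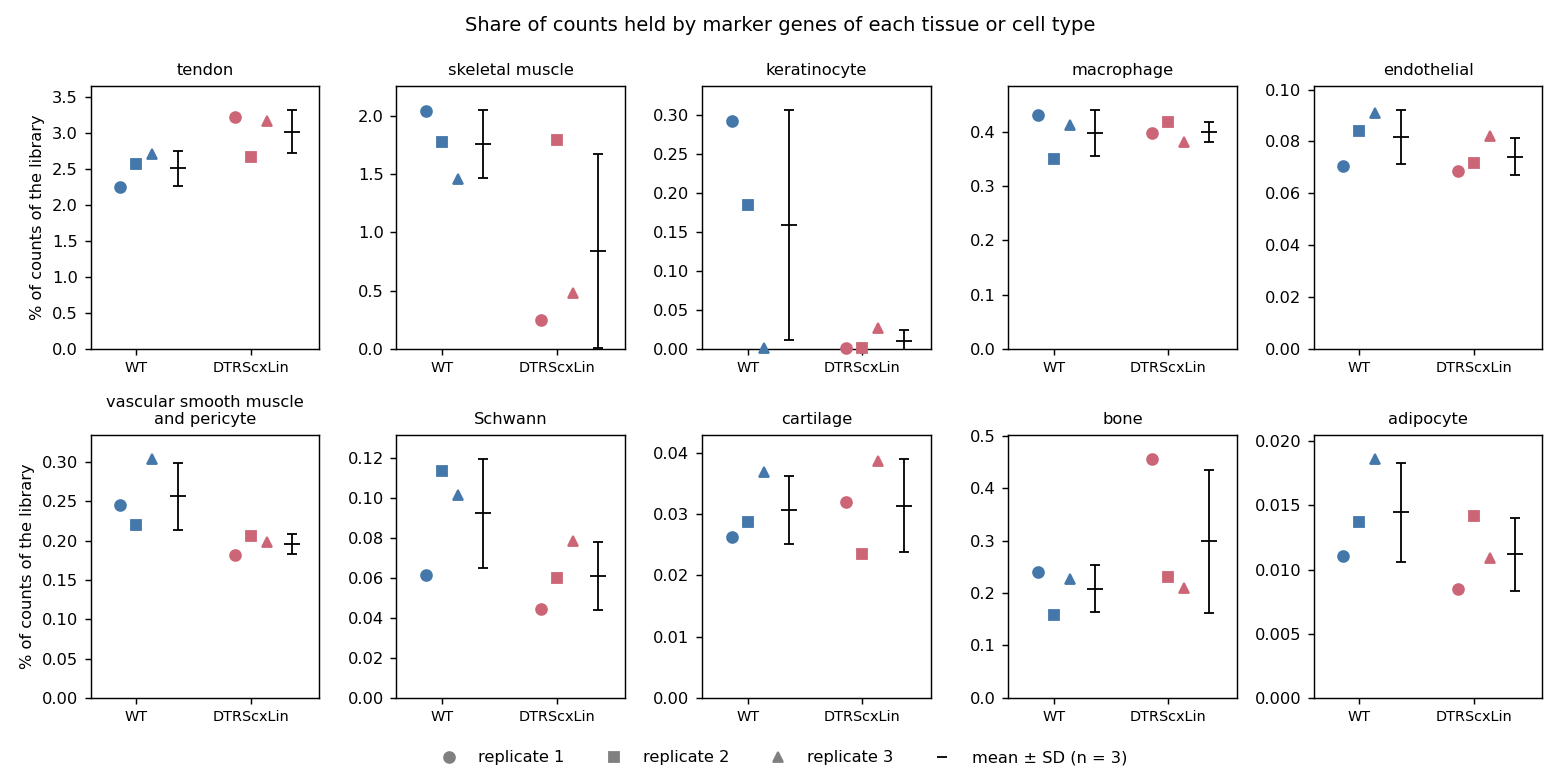
Percent of each library's counts held by marker genes of 10 tissues or cell types (y axes, from 0) in WT (blue) and DTRScxLin (red) tendons, 1 symbol per library, with the mean ± SD of each group (n = 3) in black, cut at 0. Skeletal muscle is lowest in DTRScxLin replicates 1 and 3, keratinocyte genes are highest in WT replicates 1 and 2, and the macrophage share differs little.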

How the data were processed

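FDL tendon RNA was sequenced as single-end reads, 1 tendon per library, with 3 DTRScxLin and 3 WT libraries named by their labels. Reads were cleaned with FastP and assigned to genes with featureCounts by the authors, who deposited raw counts. A second deposited table holds normalized counts as a signal, and dividing the raw columns by it gave 1 constant per library, the DESeq2 size factor (0.973 to 1.06). The submitters' processing notes name DESeq2 1.22.1. The aligner, genome build, annotation and strand setting of the counting are not given in the sources used here, so genes are given by symbol.

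The fit over all genes used edgeR 4.0.16 under R 4.3.3 (filterByExpr, TMM, robust quasi-likelihood fit with genotype as the term, Benjamini-Hochberg adjustment over 17496 genes, threshold 0.05), as tested on simulated data. Standard errors (SE) were derived from the F statistic, and 95% intervals use the moderated degrees of freedom. GENCODE vM21 exon lengths matched 97.8% of the tested genes by symbol. Alternatives were DESeq2 1.42.0, limma 3.58.1 (voom, quality weights, and the deposited values as log2(value + 1)), other normalizations and filters, a replicate block, a term for Xist, and leaving out each library. The genes and lists were chosen with earlier results of these data known. Of each pathway list, the text names genes that edgeR (unadjusted p under 0.05) or DESeq2 called and the 2 most abundant per kb, except 1 gene that is not reported here, and further genes were named after their values were seen. Chi-square tests between replicates gave 36.6 to 190 per degree of freedom, well beyond sampling noise, and all libraries were kept as separate samples. Libraries held 42744138 to 48854310 counts. Gdf5, Gdf6 and Bmp7 had 5 to 143 counts per library, so counting error adds to the spread between 3 animals.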

Additional observations from a re-analysis of the deposited data

How the results depend on the processing

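Of 178 values of the 10 genes under 18 alternatives, 170 kept their direction and their side of the threshold, 2 passed it and 6 changed sign, and 7 of the 10 genes never changed sign. Both that passed were Bmp7 in DESeq2, at -1.77 without and -0.70 with shrinkage of the log2 fold change. They share 1 adjusted p, 0.0223 from DESeq2's Wald test. Most alternatives called 0 genes over the whole table, so staying on the same side of the threshold tells little about these genes. Within DESeq2, shrinkage also moved Gdf5 from -1.27 to -0.40 and Gdf6 from 0.90 to 0.15. With 1 library left out, Gdf10 ranged from -0.72 to 0.25, Gdf6 from -0.26 to 1.70 and Grem1 from -1.13 to 0.54. With a term for Xist Grem1 was at 0.0043 and Gdf6 at 0.15, and Bmp2 (-0.45) and Inhba (0.30) also moved toward 0. The same term moved the others away from 0: Fst to -0.74, Bmp7 to -2.06, Gdf5 to -1.41, Bmp4 to -0.34, Bmp6 to -0.27 and Gdf10 to -0.28. Without WT replicate 1 Inhba was at 0.21 and Bmp6 at -0.30, and without DTRScxLin replicate 1 Bmp4 was at -0.13 and Bmp6 at -0.027. Without WT replicates 2 and 3 in turn Bmp6 was at -0.050 and -0.097, and without DTRScxLin replicate 2 at -0.25. The causes were not tested. Over the whole table edgeR called 0 genes. DESeq2, with or without shrinkage, called 197 higher and 269 lower, with 1 of the 10 genes, 2 BMP target genes, 1 other antagonist and 1 receptor among them. Without a filter on low counts edgeR called 45 higher and 38 lower, with 30758 genes tested. With 1 library left out it called from 0 to 113 genes higher and from 0 to 459 lower, all of them without DTRScxLin replicate 2, with 0 of the 10 genes and 1 protease (Pcsk5) among them. The protease list thus ranged from 0 to 1. The replicate block called 0 genes higher and 1 lower and none of the 10. Same-numbered libraries did not deviate together (correlations of -0.19, -0.15 and -0.68), and 0 of the 6 libraries correlated best with their own number, so the samples share only a number. Gdf5 and Gdf6 had no value where at least 10 counts in every library were required. No scaling moved the median log2 fold change of all genes by over 0.1. Gdf5, Gdf6 and Bmp7 rest on 5 to 143 counts per library, and every gene on n = 3.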

Other observations

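Some genes of the pathway that are known from other tissues had counts in these tendons. Bmp15, an oocyte ligand, measured 149, 222 and 272 in WT against 192, 244 and 268 in DTRScxLin tendons. Lefty1, an antagonist of Nodal in the embryo, measured 289, 265 and 540 in WT against 314, 538 and 379 in DTRScxLin tendons. Nodal itself had at most 5.74 normalized counts in a library. Hjv, which encodes the BMP co-receptor hemojuvelin of muscle and liver, measured 4325, 3786 and 2321 in WT against 606, 2781 and 865 in DTRScxLin tendons, lowest in the 2 libraries with the fewest skeletal muscle transcripts. These genes were chosen after their values were seen.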
